A study of Mus musculus with 20 samples.

Results

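Promoter-type chromatin that carried H3K4me3 and the Polycomb mark H3K27me3 in both neuron types was examined. Overlapping H3K4me3 peaks of the 4 H3K4me3 libraries on chromosomes 1 to 19 and X were merged into 345930 union regions. A region was kept if each of the 4 H3K4me3 libraries had a peak in it and each of the 4 H3K27me3 libraries had a peak over at least 1 base of it. This gave 2850 dual-marked regions of the 20979 regions with H3K4me3 in every library. The comparison set was the 12251 of those 20979 regions that met no H3K27me3 peak in any library, called Polycomb-free below. The regions were thus chosen by the measured H3K4me3 and H3K27me3 peaks, so the values of these marks are given as a description, and only H3K27ac, H3K4me1 and EGR1 were tested.

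H3K4me3 is laid down at gene starts by Trithorax-group methyltransferases and marks starts that are active or can become so. H3K27me3 is laid down by Polycomb repressive complex 2 and keeps genes silent. Regions that carry both are called bivalent, and in stem cells they lie at developmental regulators that are held silent but inducible. Polycomb tends to settle at CG-rich starts that are not transcribed. H3K27ac marks active promoters and enhancers and cannot stand on the same lysine as H3K27me3, while H3K4me1 marks enhancers and the flanks of promoters. EGR1 is a zinc-finger factor induced by neuronal activity that binds a GC-rich motif.

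The material was CUT&RUN, in which an antibody directs cleavage and release of the DNA it binds, on sorted nuclei of whole brain from mice 8 weeks old. All libraries came from animals with floxed Sun1 alleles and a Cre transgene under Emx1 control, a gene of the dorsal forebrain, and no library without them was given. Antibodies against H3K4me3, H3K27me3, H3K27ac, H3K4me1 and EGR1 were each used on nuclei labelled excitatory neuron and on nuclei labelled inhibitory neuron, with 2 libraries per group and 20 in all. How the sort told the types apart was not found in the sources used here. The labels do not state whether replicate libraries come from separate mice, so every p-value reflects the spread between libraries, which may be technical. The peak lists come from many nuclei at once. Both marks on the same allele and each mark in a different part of the nuclei cannot be told apart, nor can fewer nuclei with a mark and less of it per nucleus.

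Promoters of 6 dual-marked regions are shown as examples of 3 of the states found: an H3K27ac peak in the excitatory libraries alone (Slit2, Wnt2), in no library (Hoxd1, Tbx18, Gad2), and in all 4 libraries with few CG pairs (Slc1a3). A peak in the inhibitory libraries alone, a rarer state, has no example among them. Each is the 250 bases before the gene start, 5′ to 3′ on the gene's strand, from RefSeq's GRCm38.p6, the assembly of mm10. Capitals mark CG pairs, which number 25 in Slit2 (chr5:47982905-47983154, plus strand), 20 in Wnt2 (chr6:18030446-18030695, minus strand), 24 in Hoxd1 (chr2:74762730-74762979, plus strand), 15 in Tbx18 (chr9:87731261-87731510, minus strand), 13 in Gad2 (chr2:22622077-22622326, plus strand) and 2 in Slc1a3 (chr15:8710808-8711057, minus strand).
Slit2: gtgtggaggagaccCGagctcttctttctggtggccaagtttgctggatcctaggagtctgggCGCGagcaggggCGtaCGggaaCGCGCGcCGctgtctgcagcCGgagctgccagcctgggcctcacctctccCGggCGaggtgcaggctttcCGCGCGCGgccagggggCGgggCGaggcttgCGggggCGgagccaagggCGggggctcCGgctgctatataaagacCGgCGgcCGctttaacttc
Wnt2: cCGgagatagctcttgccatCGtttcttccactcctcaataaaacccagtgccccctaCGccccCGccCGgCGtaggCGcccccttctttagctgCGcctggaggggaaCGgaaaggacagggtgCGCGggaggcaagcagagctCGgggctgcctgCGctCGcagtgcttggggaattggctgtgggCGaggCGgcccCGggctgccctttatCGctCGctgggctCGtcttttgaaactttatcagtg
Hoxd1: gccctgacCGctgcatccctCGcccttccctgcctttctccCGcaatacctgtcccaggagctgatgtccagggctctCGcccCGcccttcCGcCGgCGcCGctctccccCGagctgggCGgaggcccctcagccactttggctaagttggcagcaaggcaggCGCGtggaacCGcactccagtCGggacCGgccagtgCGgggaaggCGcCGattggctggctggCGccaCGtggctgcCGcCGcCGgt
Tbx18: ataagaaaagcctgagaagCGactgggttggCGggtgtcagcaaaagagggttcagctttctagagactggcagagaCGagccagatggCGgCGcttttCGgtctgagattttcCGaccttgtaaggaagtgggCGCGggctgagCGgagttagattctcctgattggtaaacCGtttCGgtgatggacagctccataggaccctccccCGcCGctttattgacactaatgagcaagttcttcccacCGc
Gad2: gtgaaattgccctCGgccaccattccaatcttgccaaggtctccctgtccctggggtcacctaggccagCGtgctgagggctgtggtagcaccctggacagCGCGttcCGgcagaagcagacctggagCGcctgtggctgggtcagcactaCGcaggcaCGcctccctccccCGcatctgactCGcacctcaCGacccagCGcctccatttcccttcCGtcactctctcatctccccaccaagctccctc
Slc1a3: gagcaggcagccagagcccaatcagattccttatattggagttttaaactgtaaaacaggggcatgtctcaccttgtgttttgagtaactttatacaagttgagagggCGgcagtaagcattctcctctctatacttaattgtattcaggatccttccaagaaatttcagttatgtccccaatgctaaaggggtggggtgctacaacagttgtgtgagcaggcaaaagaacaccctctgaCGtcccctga

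The lists hold no read counts, so depth is unknown. The excitatory H3K27ac lists had 2.57% and 4.94% of their peaks at a q-value under 0.05, against 31.8% and 35.1% in the inhibitory lists, and excitatory replicate 2 had 268626 H3K27ac peaks against 109536 to 140155 in the other 3. In every H3K27me3 list under 0.01% of peaks passed that q-value, so the dual-marked regions rest on a lenient call of H3K27me3. H3K27me3 peaks covered 182 and 216 Mb (excitatory) and 277 and 243 Mb (inhibitory). The labels were only partly visible in marker genes. All 20 pan-neuronal markers had H3K4me3 within 2 kb of a start in every H3K4me3 library, beside 8 to 13 of 15 astrocyte, 8 to 13 of 16 oligodendrocyte-lineage, 3 to 7 of 15 microglial and 5 to 9 of 15 vascular markers. H3K27ac covered 7.25%, 24.8%, 15.6% and 40.3% of the window at Slc17a7, which loads glutamate into vesicles in cortical excitatory neurons, in excitatory 1, excitatory 2, inhibitory 1 and inhibitory 2. At Gad1, which makes GABA, it covered 19.3% in excitatory 1 and 0% in the other 3. Over the marker lists, H3K27ac was present at 18 and 18 (excitatory) and 12 and 15 (inhibitory) of 21 excitatory markers. This count is in the order of the labels. The mean H3K27ac coverage at these markers was in the opposite order, at 14.1% and 14.1% (excitatory) and 15.2% and 18.7% (inhibitory). Of 24 inhibitory markers, H3K27ac was present at 10 and 17 (excitatory) and 4 and 4 (inhibitory), against the labels.

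The dual-marked regions had a median width of 1548 bases, against 1855 for Polycomb-free regions, and ranged from 291 to 5014 bases. H3K4me3 peaks covered a median of 71.3% and 85.3% (excitatory) and 68.2% and 75.6% (inhibitory) of a dual-marked region. The authors' fold enrichment of the highest H3K4me3 peak had medians of 3.96 and 5.35 (excitatory) and 5.20 and 6.18 (inhibitory), beside 4.23, 4.95, 5.17 and 5.68 in Polycomb-free regions. H3K4me3 was thus called at a similar fold with and without H3K27me3. H3K27me3 covered a median of 69.7% and 72.1% (excitatory) and 95.8% and 91.6% (inhibitory), at a fold of 1.90 to 1.98. The mean H3K27me3 coverage over libraries was 75% or more in 1502 regions (52.7%) and under 25% in 56. At the edge of the rule, Spata13 was kept with 1 base of H3K27me3 in inhibitory 2 and Gpr182 with 3 bases. Pde8a fell out because an H3K27me3 peak of inhibitory 1 ended at its edge, and Afap1 because the nearest H3K27me3 peak of inhibitory 2 was 6 bases away. In 198 dual-marked regions the library with the least H3K27me3 had under 200 bases, and 1228 regions with shared H3K4me3 missed H3K27me3 in 1 library only.

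Of the dual-marked regions, 1813 (63.6%) lay within 2 kb of the start of a protein-coding gene, beside 65.3% of Polycomb-free regions. A further 445 lay elsewhere in a coding gene, 176 in a noncoding RNA gene only and 416 outside these. Dual-marked regions away from any gene made up 14.6%, against 7.55% of Polycomb-free regions. The starts belonged to 1830 of 21631 protein-coding genes. By chromosome, dual-marked regions were 11.2% to 18.1% of shared H3K4me3 regions on the autosomes and 6.16% (35 of 568) on X. In 14 of them a miRNA gene started, among them Mir375, Mir574, the Mir34b and Mir34c pair, Mir193a, Mir152 and Mir203.

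H3K27ac was found at fewer dual-marked than Polycomb-free regions in each of the 4 libraries. A peak lay over 53.9% and 76.6% (excitatory) and 47.8% and 53.1% (inhibitory) of dual-marked regions. In Polycomb-free regions the shares were 82.5% and 88.8% (excitatory) and 91.9% and 93.6% (inhibitory). The gap in percentage points was -28.6, -12.1, -44.0 and -40.5, a mean of -31.3 ± 14.4 (SD, n = 4). The exact two-sided sign-flip permutation test over libraries gave p = 0.125, the smallest that n = 4 allows, so this design cannot reach 0.05. The gap was on average 21.9 points narrower in the excitatory libraries, with p = 0.333 in the exact two-sided permutation test, the smallest that 2 against 2 allows. The excitatory lists are those with few peaks at q under 0.05 and, in replicate 2, many peaks, and their part in this difference was not tested. Among regions at gene starts the mean gap was -35.8 points, and with members covered by H3K27me3 over at least 50% in each library it was -39.2.

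**Figure D1:**
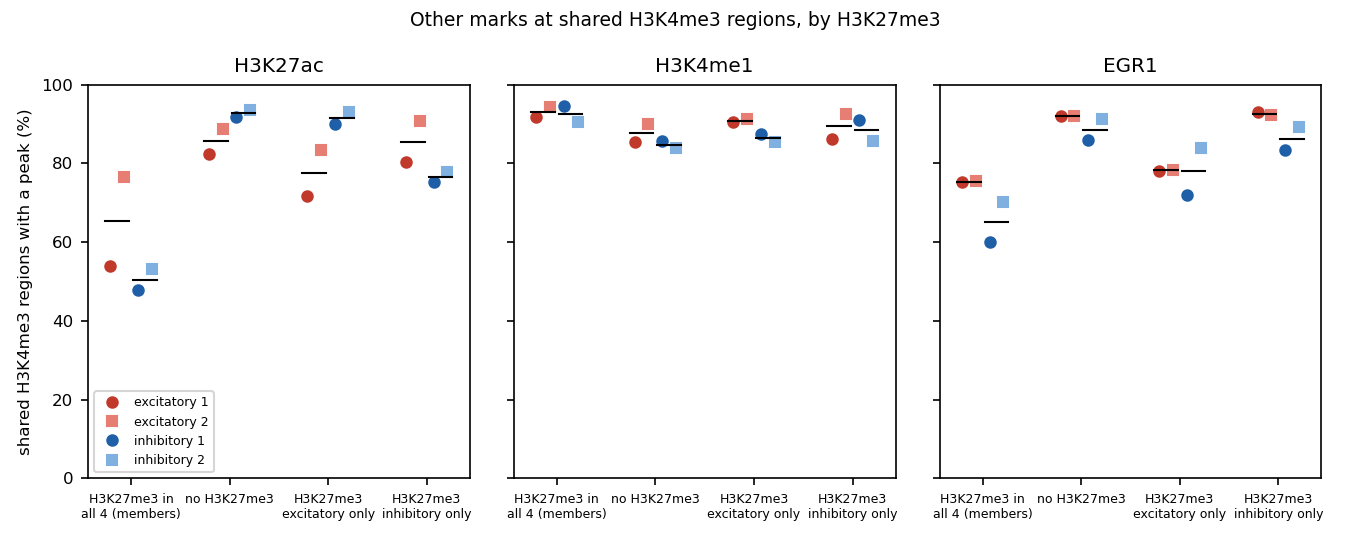
Percent of shared H3K4me3 regions with an H3K27ac, H3K4me1 or EGR1 peak (y axis), by their H3K27me3 (x axis). Points are libraries, circles replicate 1 and squares replicate 2, and black lines are the mean of the 2 libraries of a type. In the H3K27ac panel the dual-marked regions lie at 47.8% to 76.6% and the Polycomb-free regions at 82.5% to 93.6%.

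At the 535 shared H3K4me3 regions with H3K27me3 in the excitatory libraries alone, H3K27ac shares were 71.6% and 83.4% (excitatory) and 89.9% and 93.1% (inhibitory). At the 1009 with H3K27me3 in the inhibitory libraries alone they were 80.3% and 90.7% (excitatory) and 75.2% and 77.8% (inhibitory). The dual-marked regions lay below both sets in each of the 4 libraries.

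H3K4me1 went the other way. A peak lay over 91.8% and 94.3% (excitatory) and 94.6% and 90.4% (inhibitory) of dual-marked regions, against 85.4%, 89.9%, 85.6% and 83.8% of Polycomb-free regions, a mean gap of 6.61 points (exact two-sided sign-flip permutation p = 0.125, n = 4). The mean share of a region covered by H3K4me1 was 56.0% and 67.6% (excitatory) and 67.6% and 62.5% (inhibitory) at dual-marked regions, and 37.5%, 46.8%, 41.0% and 40.7% at Polycomb-free regions. The 2 sets did not overlap in any pair of libraries by this measure. At the 535 regions with H3K27me3 in the excitatory libraries alone, H3K4me1 peaks lay over 90.5% and 91.2% (excitatory) and 87.5% and 85.4% (inhibitory). At the 1009 with it in the inhibitory libraries alone, the shares were 86.2%, 92.5%, 91.0% and 85.7%.

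EGR1 was found at fewer dual-marked regions as well. Its peaks lay over 75.1% and 75.4% (excitatory) and 60.1% and 70.2% (inhibitory), against 92.0%, 91.9%, 85.9% and 91.2% of Polycomb-free regions. The mean gap was -20.03 points, of the same sign in 4 of 4 libraries (exact two-sided sign-flip permutation p = 0.125, n = 4). An EGR1 peak was present in all 4 libraries at 1404 dual-marked regions (49.3%) and at 81.6% of Polycomb-free regions, and in none at 353 (12.4%). With H3K27me3 in the excitatory libraries alone (535 regions), EGR1 shares were 78.1% and 78.3% (excitatory) and 72.0% and 83.9% (inhibitory). With it in the inhibitory libraries alone (1009 regions), they were 93.0%, 92.3%, 83.3% and 89.2%.

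Among the dual-marked regions, H3K27ac and EGR1 were less frequent where H3K27me3 covered more of the region. From the 56 regions under 25% mean coverage to the 1502 with 75% or more, the H3K27ac share went from 78.6% to 45.3% in excitatory 1 and from 92.9% to 71.6% in excitatory 2. In inhibitory 1 it went from 83.9% to 37.7% and in inhibitory 2 from 83.9% to 42.5%. EGR1 went from 91.1% to 67.9% and from 91.1% to 68.6% in the excitatory, and from 89.3% to 50.9% and from 94.6% to 61.3% in the inhibitory libraries. H3K4me1 stayed between 87.8% and 100% in every coverage class and library. The H3K4me3 fold, averaged over library medians, was 5.01, 5.24, 5.23 and 5.06 over the 4 classes. Width differed between the classes, with medians of 2500.5 bases in the lowest and 1404 in the highest, and a shorter region has less room for a peak. Among regions of 1 to 3 kb at a gene start, the lowest class held 34 regions and the highest 851. There the H3K27ac shares in excitatory 1, excitatory 2, inhibitory 1 and inhibitory 2 were 76.5%, 91.2%, 79.4% and 85.3% in the lowest class. In the highest they were 47.4%, 74.0%, 36.7% and 42.0%. EGR1 shares were 94.1%, 94.1%, 91.2% and 94.1% in the lowest and 69.2%, 69.7%, 51.8% and 61.8% in the highest. The part of width was not tested. These are shares of regions and carry no test.

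**Figure D2:**
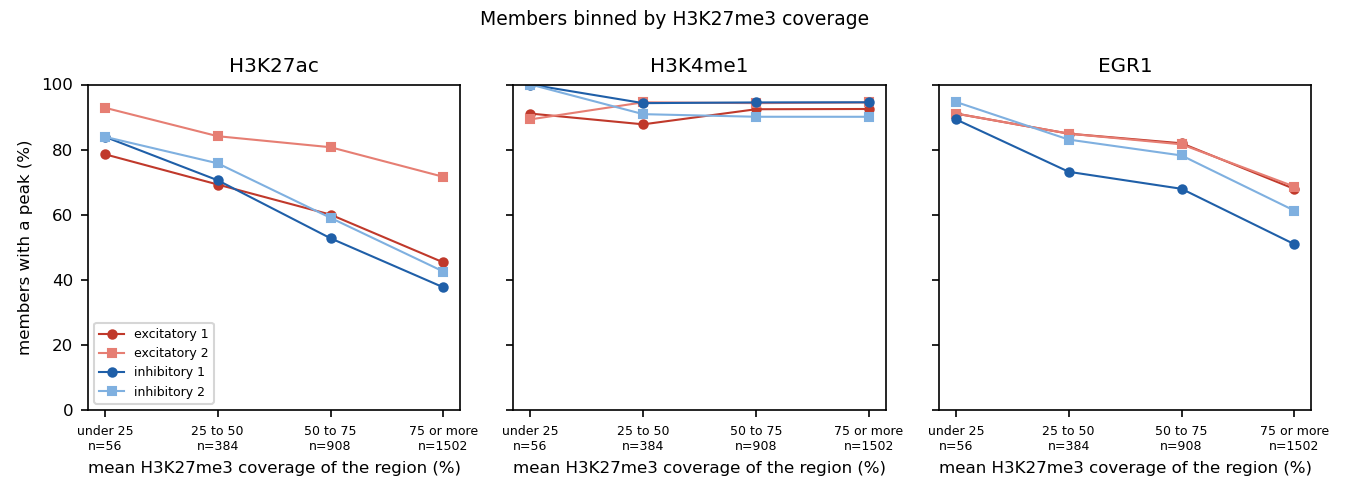
Percent of dual-marked regions with a peak (y axis) by mean H3K27me3 coverage of the region (x axis, 4 classes with their number of regions), 1 line per library. H3K27ac and EGR1 are lower in each higher class in all 4 libraries, and H3K4me1 stays at 87.8% or more.

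H3K27ac was uniform over the 4 libraries less often at dual-marked than at Polycomb-free regions. H3K27ac peaks lay in 0, 1, 2, 3 and 4 libraries at 306, 510, 694, 662 and 678 dual-marked regions, while 72.7% of Polycomb-free regions had them in all 4. Both excitatory and no inhibitory library had H3K27ac at 358 dual-marked regions (12.6%), against 3.28% of all shared H3K4me3 regions and 0.792% of Polycomb-free ones. The opposite pattern was found at 73 (2.56%), against 2.74% of all shared regions. For EGR1 the counts were 183 (6.42%, all shared 2.89%) and 59 (2.07%, all shared 1.08%). For H3K4me1 they were 51 (1.79%, all shared 2.75%) and 31 (1.09%, all shared 1.25%).

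Between the neuron types, no dual-marked region passed an adjusted p of 0.05 for any of the 3 antibodies. The percent of the region plus 1 kb on each side covered by peaks was quantile-normalized and compared with limma (the differences below are on this normalized scale, the coverages as deposited), over all H3K4me3 union regions covered in at least 2 of 4 libraries, with Benjamini-Hochberg adjustment. For H3K27ac 2148 of the 2850 were tested and 0 called (0% of 136836 regions tested), with a smallest adjusted p of 0.137. At an unadjusted p under 0.05, limma had 514, of which 122 were higher in inhibitory and the rest in excitatory nuclei, beside 14.1% and 15.2% of all regions tested. These counts rest on single libraries. Both fell in each fit without 1 library, as did both shares over all regions tested. Such a fit leaves 1 library in a type, so only its median difference is given. The median difference was 5.18 points toward excitatory over the dual-marked regions tested and -0.21 over all regions. It was 9.61 without excitatory replicate 1, 7.78 without excitatory replicate 2, 3.23 without inhibitory replicate 1 and 3.77 without inhibitory replicate 2. For H3K4me1, 2826 were tested, 0 called (0% of 209959), and 110 and 183 had an unadjusted p under 0.05 (15.2% and 14.5% of all). For EGR1, 2306 were tested, 0 called (0% of 94371), and 107 and 384 had an unadjusted p under 0.05 (14.6% and 15.5% of all). The EGR1 split turned to 521 and 75 without quantile normalization (37.2% and 4.51% of all). With only shared H3K4me3 regions tested it was 339 and 177 (8.4% and 5.88% of all). The median EGR1 difference was -3.96 points, 5.88 without quantile normalization, -0.56 without excitatory replicate 1 and -0.39 without excitatory replicate 2. No direction is therefore read from EGR1. The smallest adjusted p was 0.0733 for H3K4me1 and 0.0642 for EGR1.

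The 5 regions with the lowest limma p toward excitatory H3K27ac were at Gpr149, Tmem196, Tmem200a, Fam174b and Bean1. At Gpr149, an orphan receptor, H3K27ac covered 39.2% and 37.8% of the window in the excitatory and 0% in both inhibitory libraries, a normalized difference of 43.6 ± 7.02 points (SE; limma adjusted p = 0.137). Tmem196 had 46.9% and 38.5% against 0% and 0%, and Tmem200a 32.6% and 40.4% against 0% and 0%. Fam174b (32.7%, 37.8%, 0%, 0%) and Bean1 (36.6%, 36.2%, 0%, 0%) had the same pattern. None of these regions passed the adjusted threshold. Their excitatory and inhibitory libraries did not overlap, but this is no separate evidence of a difference. The regions were picked by lowest p, and with 0% in both inhibitory libraries they could pass the coverage filter only through the excitatory ones. The same limit applies to other regions picked by lowest p, for any antibody, with 0% in both libraries of a type. Toward inhibitory H3K27ac, Myo10, an unconventional myosin, had 0% and 0% against 30.9% and 35.2%, a difference of -29.3 ± 6.29 points (SE; limma adjusted p = 0.137). Zfp423, a zinc-finger factor of progenitors, had 0% and 0% against 29.2% and 36.2%. Fhl3, Rhbg and Col4a3, which encode a LIM-domain protein, an ammonium transporter and a collagen, had 32.9% to 40.2% in the inhibitory and 0% to 10.8% in the excitatory libraries.

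H3K4me1 with the lowest p toward inhibitory nuclei included the promoter of Nkx2-1, the homeobox factor of the medial ganglionic eminence from which many cortical interneurons arise. H3K4me1 covered 21.7% and 28.3% of its window in excitatory against 79.1% and 72.2% in inhibitory libraries, with a fitted difference of -54.0 ± 12.5 points (SE; limma adjusted p = 0.0755). Within the region itself it was 0% and 0% against 100% and 100%, and neither H3K27ac nor EGR1 had a peak there in any library. Its H3K27me3 was thin, at 15.1%, 0.358%, 2.44% and 35.0%. Adcy2, an adenylyl cyclase, had 6.37% and 13.7% against 68.9% and 69.3%, and Vipr2, a receptor for VIP, 16.7% and 27.8% against 69.3% and 71.3%. Pcdh17 and Ddn were the other 2. Toward excitatory nuclei, H3K4me1 at Foxj1, the regulator of motile cilia, covered 75.7% and 72.4% against 16.2% and 0%. At Igfbp6, which binds insulin-like growth factors, it covered 48.8% and 66.4% against 0% and 0%. Mfsd6l, Castor1 and Gucy1b2 completed that set.

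For EGR1, Igfbp6 was again among the lowest p, with 37.8% and 49.2% of the window in excitatory against 5.40% and 5.79% in inhibitory libraries (difference after quantile normalization 25.8 ± 4.78 points, SE; limma adjusted p = 0.0667). The extracellular matrix genes Podn and Smoc2 had 29.9% to 43.2% in the excitatory and 0% to 11.5% in the inhibitory libraries. Lamp5, a membrane protein of neurons, had 35.3% and 26.9% against 0% and 0%, and Aire, the autoimmune regulator, 27.4% and 26.4% against 0% and 0%. In the other direction stood Rhbdl3 (7.38%, 0%, 26.3%, 28.6%), a rhomboid-like protein, with a difference after quantile normalization of -31.4 ± 3.66 points (SE; limma adjusted p = 0.0642). The matrix genes Vcan, Sparc and Hmcn1 had 8.50% to 13.95% in the inhibitory and 0% in both excitatory libraries, and Vwc2 25.6% and 33.7% against 17.1% and 13.2%.

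The rule's own marks also differed between the types at many regions, given here as a description. H3K4me3 coverage in both excitatory libraries lay above that in both inhibitory libraries at 979 dual-marked regions (34.4%; 22% of all shared H3K4me3 regions) and below it at 516 (18.1%; 25% of all). H3K27me3 coverage was above in both inhibitory libraries at 922 (32.4%; 11.7% of all) and above in both excitatory at 258 (9.05%; 4.74% of all). At 424 dual-marked regions (14.9%; 5.12% of all shared) H3K4me3 was higher in both excitatory and H3K27me3 in both inhibitory libraries, and at 95 (3.33%; 2.44% of all) the reverse held. Both marks were higher in the excitatory libraries at 42 (1.47%; 0.472% of all) and in the inhibitory at 97 (3.40%; 1.33% of all). Regions without H3K27me3 in any library count among all shared regions and cannot enter these sets.

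H3K27ac differed between these 4 sets. At the 424 regions, H3K27ac was present at 76.4% and 89.2% in excitatory against 40.3% and 43.2% in inhibitory libraries. At the 95 regions it was present at 43.2% and 73.7% in excitatory against 82.1% and 87.4% in inhibitory libraries. In neither of these sets did the types overlap, and the order was opposite. Where both marks were higher in the excitatory libraries (42 regions), H3K27ac shares were 50%, 81.0%, 50% and 54.8%. Where both were higher in the inhibitory libraries (97 regions), they were 53.6%, 74.2%, 50.5% and 71.1%. The types tied in part or overlapped there. With 2 libraries per type, neither a relation of H3K27ac to H3K4me3 nor its absence is read from those sets. EGR1 did not show this reversal: its shares were 92.5% and 92.2% against 80.4% and 86.8% at the 424 regions, and 65.3% and 71.6% against 55.8% and 63.2% at the 95. These shares are descriptions, since the sets were made after the values of the rule's marks were known.

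At Slit2, an axon guidance ligand, H3K4me3 covered 94.6% and 94.0% of the region in excitatory against 32.3% and 42.3% in inhibitory libraries, with H3K27me3 at 77.3%, 93.7%, 100% and 96.2%. H3K27ac covered 29.4% and 21.0% in the excitatory and 0% in both inhibitory libraries. At Wnt2, a secreted WNT ligand, H3K27ac covered 45.6% and 59.0% against 0% and 0%, with H3K27me3 at 69.6%, 94.5%, 100% and 100%. Both promoters are printed above, and EGR1 covered 65.6% and 63.1% of the Wnt2 region in the excitatory but 11.2% and 29.2% in the inhibitory libraries. Grm7, a presynaptic glutamate receptor, had H3K4me3 at 67.6%, 85.1%, 23.8% and 37.3%, and H3K27ac at 28.7% and 39.1% against 0% and 0%. Kcnn3, a calcium-activated potassium channel, had H3K4me3 at 82.3%, 80.9%, 25.4% and 22.9%, and H3K27ac at 14.4% and 31.9% against 0% and 0%. These 4 genes are named as examples of a pattern: both excitatory libraries lay above both inhibitory ones for H3K4me3 and H3K27ac. H3K4me3 had that order at 34.4% of dual-marked and 22% of all shared H3K4me3 regions. H3K27ac was in both excitatory and no inhibitory library at 12.6% and 3.28%.

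Other named regions had more H3K4me3 in the inhibitory libraries. Eomes, a T-box factor of cortical intermediate progenitors, had H3K4me3 at 19.7% and 41.6% in excitatory against 90.1% and 100% in inhibitory libraries. Its H3K27ac was 0% and 7.90% against 49.8% and 54.5%, so a regulator of the excitatory lineage carried more of both marks in nuclei labelled inhibitory. Gsx1, a homeobox factor of ventral progenitors, had H3K4me3 at 10.7%, 32.8%, 77.0% and 89.1% and H3K27ac at 0%, 0%, 19% and 27.2%. Erbb4, the neuregulin receptor of interneurons, had H3K27me3 at 65.0% and 35.5% in excitatory against 9.13% and 11.4% in inhibitory libraries. Its H3K27ac was 43.1%, 30%, 61.0% and 53.3%, higher in both inhibitory libraries. Gad2, which like Gad1 makes GABA, had H3K4me3 at 14.3%, 56.8%, 77.8% and 100%. Yet it had no H3K27ac in any library and H3K27me3 in all of them (58.7%, 85.7%, 100%, 50.9%).

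**Figure D3:**
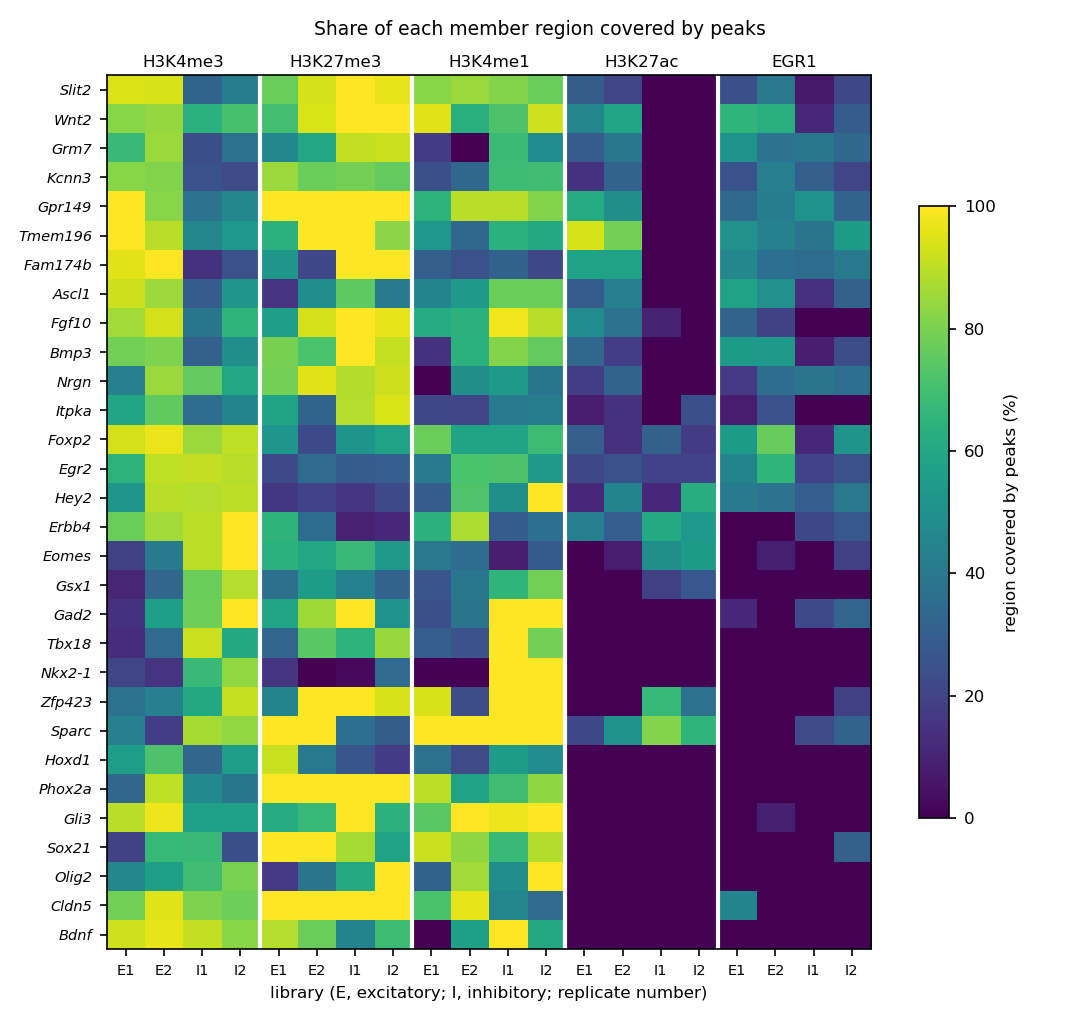
Percent of each dual-marked region covered by peaks (colour, 0 to 100) in the 20 libraries, for 30 named genes in rows and antibodies in blocks of 4 columns. Slit2, Wnt2, Grm7 and Kcnn3 have H3K27ac in the excitatory columns alone, Eomes and Gsx1 have more in the inhibitory columns, and Hoxd1, Phox2a, Gli3 and Gad2 have none.

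The 10 widest dual-marked regions differed in how much of them H3K27me3 covered. Mycn, a growth-promoting transcription factor, had the widest, 5014 bases, with H3K27me3 over 23.9%, 49.5%, 69.6% and 50.1% of it. Alcam, a cell adhesion molecule, followed with 4812 bases and the least H3K27me3 of the 10 widest on average (13.2%, 22.1%, 23.5%, 11.6%). Its H3K27ac was 22.0%, 29.4%, 19.7% and 42.8%, present in all 4 libraries. Kcnn3, Ajap1, Nav1, Tmem132b, Kcnc4, Tenm4, Tafa2 and Slit2 measured 3958 to 4282 bases. Tmem132b and Tafa2 had H3K27ac at 20.1% to 47.1% in the excitatory and 0% in both inhibitory libraries. H3K4me1 at Tenm4, a synaptic adhesion protein, covered 3.75% and 12.8% in the excitatory but 93.5% and 93.5% in the inhibitory libraries.

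At the other end were regions wholly covered by H3K27me3 in all 4 libraries. Among the 10 of these with at least 1000 bases that the naming rule took, Phox2a, a homeobox factor of noradrenergic neurons, had neither H3K27ac nor EGR1 in any library. Phox2a kept H3K4me3 over 32.8%, 90.6%, 47.4% and 38.8% and H3K4me1 over 57.7% to 90.0%. Hk2, the inducible hexokinase, had H3K27ac in excitatory 2 alone (18.5%), as did Kcns3 (15.8%) and Epas1, a hypoxia-inducible factor (58.3%). Cxcl12, a chemokine, had H3K27ac in all 4 libraries (14.1%, 47.7%, 37.3%, 37.5%) beside complete H3K27me3. Fgfr3 and Tgfb1 had H3K4me3 at 46.5% to 78.4% in the excitatory and 85.2% to 100% in the inhibitory libraries. Gpr149, Fgf15 and Plekhd1 were the others.

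Developmental regulators and signalling ligands were frequent among the genes with dual-marked starts. Of 13273 protein-coding genes with a shared H3K4me3 region at the start, 1830 (13.8%) had a dual-marked one. In 7 lists of transcription factor families the number was 61 of 115 (53.0%), and in 3 lists of secreted ligands and their antagonists 45 of 68 (66.2%). The lists were chosen with earlier results of these data known, and these counts carry no test.

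Among the transcription factors, 27 of 52 homeobox and paired genes outside the HOX clusters with shared H3K4me3 were dual-marked, including Otx1, Pou3f2, Six4 and Gsx1. All 5 T-box genes with shared H3K4me3 were, of 15 in the list: Eomes, Tbx1, Tbx18, Tbx2 and Tbx21. Forkhead genes gave 5 of 12, SOX genes 5 of 11, GATA, GLI and ZIC genes 4 of 5 and bHLH genes 14 of 27. Over the 65 dual-marked regions of these lists, H3K27ac was present at 23.1% and 46.2% in excitatory against 29.2% and 33.8% in inhibitory libraries. That is below the 54.9%, 76.5%, 46.8% and 51.8% of all dual-marked regions at gene starts, in each library. EGR1 was present at 49.2%, 56.9%, 43.1% and 47.7%, against 75.8%, 75.7%, 60.6% and 70.9%. Tbx18 and Tbx2, factors of heart development, and Sox21 and Olig2, of neural and oligodendrocyte progenitors, had H3K27ac at 0% in all 4 libraries. Gli3, an effector of hedgehog signalling, had no H3K27ac either, with H3K4me3 at 89.7%, 97.4%, 57.3% and 57.2%. By contrast Six4 (31.8%, 23.5%, 55.8%, 51.3%), Gli1 (35.3%, 33.8%, 36.9%, 67.2%) and Id4 (29.3%, 25.8%, 45.3%, 26.4%) had H3K27ac in every library.

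Of the 39 HOX genes 3 had shared H3K4me3 at the start, and 1 of these, Hoxd1, was dual-marked. It had H3K4me3 over 56.0%, 72.2%, 33.0% and 55.9% and no H3K27ac or EGR1. H3K27me3 was present within 2 kb of the start at 34, 37, 39 and 38 of the 39 genes in the 4 libraries. H3K4me3 was present there at 20, 29, 23 and 16. By gene, H3K4me3 was present there in all 4 libraries at 4 of the 39 HOX genes and in 3 at 12. It was present in 2 libraries at 14, in 1 at 8 and in none at 1.

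Among ligands, WNT genes gave 16 of 23, BMP, TGF-beta and hedgehog genes 18 of 28 and FGF genes 11 of 17. Over their 46 dual-marked regions H3K27ac was present at 45.7% and 58.7% in excitatory against 28.3% and 37.0% in inhibitory libraries. Wnt4 resembled Wnt2, with H3K27ac over 55.0% and 33.6% against 0% and 0%. Bmp3 had 33.3% and 18.2% against 0% and 0%, and Fgf10 48.1% and 37.1% against 9.62% and 0%. Both excitatory libraries lay above both inhibitory ones at these 3 ligands, which are examples and not a count over the lists. Fgf5 had 25.6%, 40.5%, 26.9% and 32.4% and Inhbb, an activin subunit, 31.4%, 32.0%, 26.4% and 29.2%, with overlapping types. Wnt6 and Fst, the activin antagonist, had at most 12.3% in any library.

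Genes of neuronal function formed a further group. Dual-marked starts were found at 20 of 49 neurotransmitter receptor genes with shared H3K4me3, among them Grm2, Grm7, Grm8, Grin2b, Htr1b, Htr2a, Chrm4 and Drd2, and at 12 of 31 potassium channel genes. At the 20 receptor regions H3K27ac was present at 80% and 95% in excitatory against 45% and 35% in inhibitory libraries, and 18 of the 20 had a fitted difference toward excitatory, with a median of 10.8 points. Over all dual-marked gene starts tested, 869 of 1362 had a difference toward excitatory, with a median of 4.69 points. None of the 20 was called by limma after adjustment, and 6 had an unadjusted p under 0.05 toward excitatory, beside 258 of the 1362 and 15.2% of all regions tested. EGR1 was present at 90% of the receptor regions in every library, unlike the transcription factor starts. Htr1b, a serotonin receptor, had H3K27ac over 23.5% and 20.4% against 0% and 0%, while Grm8 had it in all 4 libraries (51.9%, 22.4%, 31.4%, 18.1%). The channel Kcnd3 had H3K27ac at 35.0%, 34.2%, 50.1% and 52.5% with little H3K27me3 (21.5%, 8.24%, 21.6%, 9%).

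Against the 13.8% of all genes with shared H3K4me3, other lists were lower or near it. There was none among 19 housekeeping genes and 17 H3K4 methyltransferase and demethylase genes with shared H3K4me3, 2 of 19 (10.5%) among pan-neuronal genes (Nefh and Nefl, neurofilament chains) and 3 of 33 (9.09%) among Polycomb complex genes (Cbx8, Epop and Phf19). Activity-regulated genes gave 4 of 24 (16.7%). Of these, Egr2 had H3K27ac in all 4 libraries (21.7%, 25.1%, 20%, 20.2%), and the dual-marked start of Bdnf, a neurotrophin with several promoters, had none and no EGR1.

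Markers of both neuron types carried the dual mark in both types. Among excitatory markers 5 of 17 did: Emx1, Foxp2, Itpka, Nrgn and Slc17a6. Nrgn, a calmodulin-binding protein of forebrain neurons, had H3K27ac over 18.0% and 31.5% against 0% and 0%, with H3K27me3 at 79.0%, 95.7%, 88.4% and 92.2%. Among inhibitory markers 7 of 12 did: Adarb2, Dlx5, Erbb4, Gad2, Nkx2-1, Npy and Pvalb. Adarb2, a marker of caudal-origin interneurons, had H3K27ac at 35.2% and 46.1% in excitatory against 12.1% and 0% in inhibitory libraries, so the excitatory libraries were higher at this inhibitory marker. Markers of other cells were included as well, with 5 of 7 astrocyte, 5 of 7 oligodendrocyte-lineage, 3 of 3 vascular and 0 of 2 microglial genes. Slc1a3, the astrocyte glutamate transporter, had H3K27ac in all 4 libraries (41.4%, 74.0%, 66.7%, 44.7%), and Aldoc in 3. Cldn5 and Kcnj8, of endothelium and pericytes, had none in any library. Nuclei of other cell types as a source of these peaks were not tested.

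**Figure D4:**
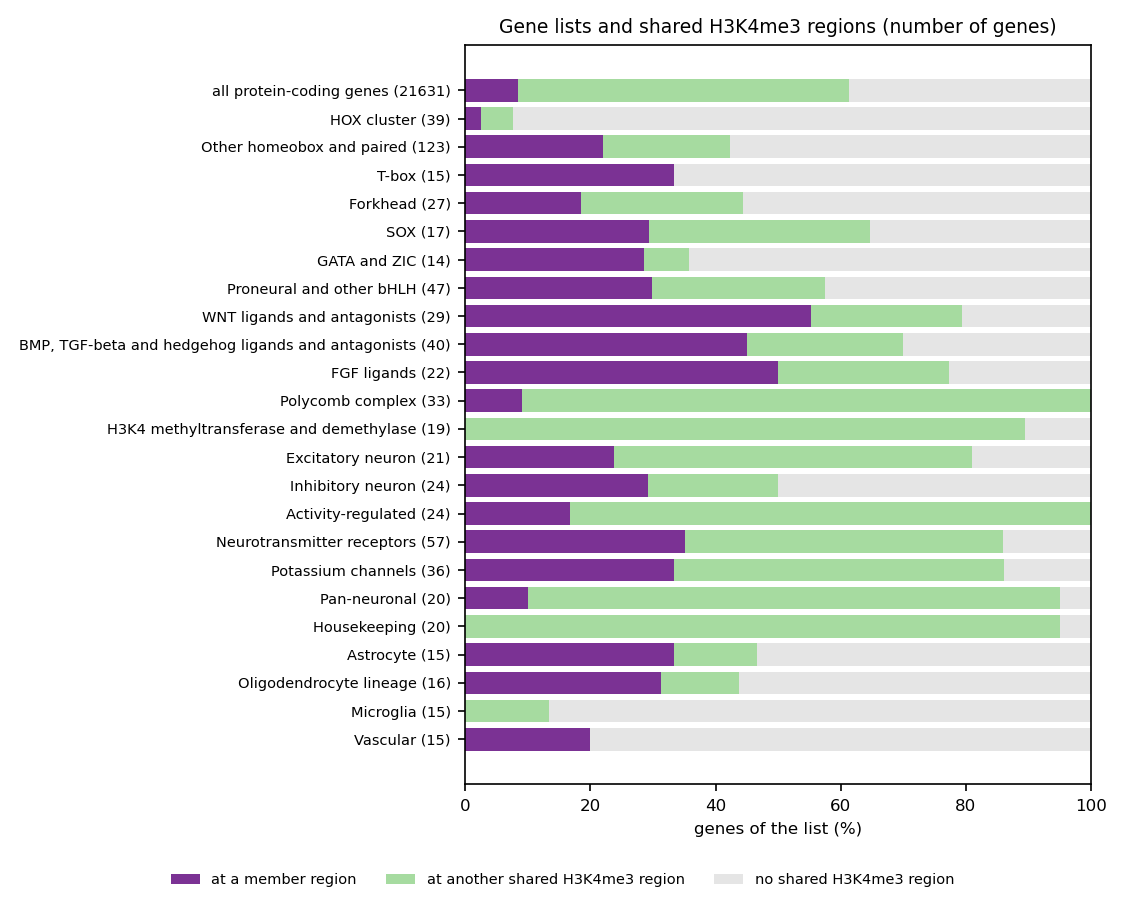
Share of the genes of each list (x axis, percent of genes; number of genes in brackets) whose start lies at a dual-marked region (purple), at another shared H3K4me3 region (green) or at none (grey). WNT, FGF and BMP lists have the widest purple bars, and housekeeping and H3K4 methyltransferase lists have none.

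The promoters of dual-marked regions were CG-rich, though less so than those of Polycomb-free regions. RefSeq promoters (250 bases before to 50 after the start) were matched to 1424 starts in dual-marked and 7957 in Polycomb-free regions. The ratio of observed to expected CG pairs had a median of 0.679 at dual-marked and 0.814 at Polycomb-free promoters, and of 0.206 at 8940 promoters with no shared H3K4me3 region. G and C made up a median of 63.3% and 62.0% at the first 2 sets. A ratio under 0.4 was found at 13.7% of dual-marked and 6.06% of Polycomb-free promoters. The printed promoters span this range, from Slit2 with a ratio of 0.848 over its 250 bases to Slc1a3 with 0.160. H3K27ac by CG ratio was taken over a smaller dual-marked set than those 1424 starts. The 186 under 0.4 had H3K27ac at 57.5%, 87.1%, 52.7% and 53.2%, and the 1081 at 0.4 or more at 54.8%, 76.3%, 45.2% and 51.0%.

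**Figure D5:**
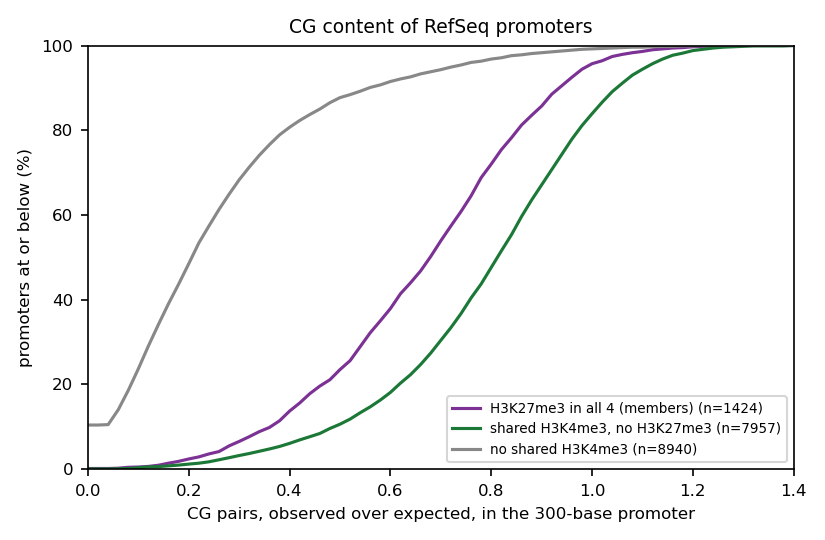
Cumulative share of promoters (y axis, percent) by observed over expected CG pairs (x axis) for 3 sets of RefSeq promoters. The curve of dual-marked promoters (median 0.679) lies between those of Polycomb-free promoters (0.814) and promoters with no shared H3K4me3 (0.206).

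The EGR1 motif, searched as GCGTGGGCG or GCGGGGGCG on both strands, was in 6.95% of dual-marked, 6.84% of Polycomb-free and 4.67% of all 21045 promoters. Within the printed stretches, Slit2 has GCGGGGGCG beginning 65 bases before the start and Wnt2 its reverse complement beginning 192 bases before it. EGR1 peaks lay over 48.5%, 57.6%, 38.4% and 54.5% of the 99 dual-marked promoters with the motif and 61.8%, 61.4%, 45.4% and 59.3% of the 1325 without. The motif therefore did not go with more EGR1 peaks here, in any library. TATAAA or its reverse complement was in 8.78% of dual-marked, 5.48% of Polycomb-free and 12.7% of all promoters. The E-box CAGCTG, its own reverse complement, was in 17.8%, 13.2% and 15.7%. The cyclic AMP element TGACGTCA, its own reverse complement, was in 2.04%, 4.08% and 2.26%, and the partial site TTCAGCACC of REST, on both strands, in 0.632%, 0.415% and 0.418%.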

How the data were processed

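The data are peak lists of CUT&RUN libraries from sorted mouse brain nuclei, 1 list per library, with groups and replicate numbers taken from the titles. Peak names inside the EGR1 lists carry replicate numbers 3 and 4 where the titles say 1 and 2, in both types alike, so either numbering pairs the same libraries. Tools listed by the submitters' processing notes are MACS2 2.2.5, Bowtie2 2.3.5, SAMtools 1.12, Picard 2.25.0, cutadapt 1.18 and Trim Galore 0.5.0, with build mm10. Their settings were not found in the sources used here. The deposited columns hold a fold enrichment (a ratio), -log10 p-value, -log10 q-value and an integer score per peak, all the authors'. The score was not used. The largest unadjusted p was about 0.1 in broad lists (H3K27me3, H3K4me1), 0.05 in narrow histone lists and 0.005 in EGR1 lists, from the values. Since peak presence depends on depth and enrichment, which the lists do not give, a missing peak is not absence of a mark.

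Regions, 1-based on mm10, were built as described above. Coverage is the percent of bases under peaks; in the limma fits it is that of the region plus 1 kb each side. Genes and promoters came from RefSeq (GRCm38.p6). A region belongs to a gene within 2 kb of its start, known for 17274 of 21631 protein-coding genes, or of either end for the other 4357. Fits used limma 3.58.1 in R 4.3.3 (trended eBayes, two-sided, excitatory minus inhibitory), tested on simulated data. Exact permutation tests used libraries as units. The members and gene lists were chosen with earlier results of these data known. Named genes were the 10 widest regions, the 10 with most H3K27me3 among those of at least 1000 bases, the 5 lowest p per antibody and direction, up to 4 per list with the widest region, and 2 each side of the threshold; other members are named to list a group. Alternatives changed normalization, scale, filter, window, peak threshold, peak number, block, libraries and regions. Deviations of same-numbered libraries correlated at 0.0122 to 0.0165. With 2 libraries per type this cannot decide whether the replicate numbers pair the libraries, which the titles do not state.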

Additional observations from a re-analysis of the deposited data

How the results depend on the processing

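Between dual-marked and Polycomb-free regions, the gap in the share with an H3K27ac peak stayed negative under every alternative run (-39.2 to -27.1 points). The EGR1 gap also stayed negative (-27.8 to -18.1), and the H3K4me1 gap stayed positive (2.49 to 8.23). As mean percent of the region covered, another measure, the gaps were -22.5 (H3K27ac), -12.0 (EGR1) and 21.9 points (H3K4me1).

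The number of dual-marked regions, 2850, was 305 when both marks needed a -log10 p-value of 2 or more, 1595 with H3K4me3 at -log10 q of at least 2, 1375 with H3K27me3 over at least 50% in each library, 2652 with at least 200 bases, and 3085 to 4207 without 1 replicate.

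Called differences depended on the setting, and the cause was not tested. For H3K27ac the count went from 0 to 450 on the log2(percent + 1) scale (334 toward excitatory) and 154 without flanks (145 toward excitatory), and was 0 to 36 without 1 library: 36 without excitatory replicate 1 and 36 without excitatory replicate 2, or 0 without an inhibitory one. On the log2 scale the H3K27ac calls made up 20.9% of the dual-marked regions tested, beside 27% of all regions tested. The share without flanks was 7.57%, beside 15.4% of all. The median H3K27ac difference over the tested dual-marked regions stayed positive in every setting. For H3K4me1 the count was 177 without flanks, 6.3% beside 22% of all. It was 58 with the replicate block (26 toward excitatory, 32 toward inhibitory), 2.05% beside 13.3% of all. The replicate block left H3K27ac and EGR1 at 0. For EGR1 the count was 302 without quantile normalization (256 toward excitatory), 13.1% beside 27.9% of all. It was 197 on the log2 scale (163 toward inhibitory), 8.54% beside 17% of all. With no filter, where limma reported its variance estimate as unreliable, it was 146, 5.12% beside 5.5% of all. Without flanks it was 206 (192 toward inhibitory), 9.2% beside 21.4% of all. Equal numbers of peaks gave 261 (215 toward inhibitory), 13.9% beside 25.4% of all. Each share was below that of all regions tested. The median H3K4me1 and EGR1 differences changed sign between settings. Testing only regions with shared H3K4me3, an alternative chosen after seeing the data, left all 3 counts at 0. The 30 single-region differences kept their direction in all 322 alternatives that could be fitted. They were chosen by lowest p in these same libraries, and settings in which a region failed the filter were not counted. The kept direction is therefore no measure of robustness. The threshold was passed most often on the log2 scale (19), without flanks (14) and with the replicate block (10). No read counts were given, so depth sets no stated limit.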
